A study of Mus musculus with 4 samples.

Results

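The 8 genes described here are Dntt, Rag1, Rag2, Satb1, Flt3, Il7r, Ltb and Ccr9, which hematopoietic progenitors switch on as they turn towards the lymphoid lineages or use to recombine antigen receptor genes. They were chosen by name, with earlier results of these data known. All probe sets that the annotation table of the array gives to these symbols alone were taken, and the genes make up 8 of the 18193 named in that way. They are read by 19 probe sets, of which 3 belong to Dntt, 5 to Satb1, 5 to Ccr9, 2 to Il7r and 1 to each of Rag1, Rag2, Flt3 and Ltb.

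Gene expression was measured on Affymetrix mouse arrays in 4 groups of 1 array each. Smo-deficient LSK and Smo-deficient MP came from mice labelled Smo flox/flox, Mx1Cre+, and WT LSK and WT MP from mice labelled Smo flox/flox, Mx1Cre-, so that all mice carried the floxed Smo alleles and the WT cells carry them undeleted. Smo encodes Smoothened, the signal transducer of the hedgehog pathway, and the Mx1 promoter that drives Cre responds to interferon in many cell types, not in blood cells alone. Every mouse had been given polyI:C, an inducer of interferon, in 3 injections of 20 ug per g, and bone marrow was harvested 6 weeks later. LSK cells lack lineage markers and carry c-Kit and Sca-1, and the fraction contains stem cells and multipotent progenitors. MP cells lack lineage markers and Sca-1 but carry c-Kit, and they are the myeloid progenitors. The strain is labelled C57BL/6x130 for Smo-deficient LSK, C57BL/6x129 for WT LSK, C57BL/6x132 for Smo-deficient MP and C57BL/6x131 for WT MP, and both sexes were mixed in each group. The number after the x differs even between LSK and MP samples of 1 pool, so these labels may hold an entry error and are not read as strain differences. Ages are not given in the sources used here. Marrow of 4 mice per genotype was pooled before the sort, and each pool gave both an LSK and an MP sample. Genotype and pool therefore cannot be told apart, and no difference between genotypes has a replicate or a p-value.

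The lymphoid fate begins within the LSK fraction, where multipotent progenitors with much Flt3 lower their megakaryocyte and erythroid potential and start to transcribe lymphoid genes at low levels. This priming precedes commitment, and Rag1, Dntt, Il7r, Ccr9 and Satb1 are widely used to follow it. Rag1 and Rag2 together form the recombinase that cuts antigen receptor gene segments, and Dntt encodes terminal deoxynucleotidyl transferase, which adds nucleotides at the junctions. General end joining factors then seal the breaks. Flt3 and Il7r are cytokine receptors that early lymphoid progenitors depend on, Ccr9 is a chemokine receptor used in homing to the thymus and gut, Ltb is a membrane-bound ligand of the tumor necrosis factor family, and Satb1 organizes chromatin in lymphoid cells.

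Promoter windows of RefSeq genes on GRCm38.p6, each 300 bases long from 250 before to 50 after the annotated start, were available for all 8 genes. There were 12 windows, since Satb1 has 5 annotated starts. Those of Dntt and Rag1, which had the highest genotype differences in LSK, and of the receptor genes Flt3 and Il7r are shown, because the 8 genes moved in the same direction between genotypes. The Dntt window is chr19:41029025-41029324 on the plus strand, the Rag1 window chr2:101649483-101649782 on the minus strand, the Flt3 window chr5:147400440-147400739 on the minus strand and the Il7r window chr15:9529827-9530126 on the minus strand. Capitals mark CANNTG, the E-box that E proteins recognise, and TGTGGT or its reverse complement ACCACA, a Runx motif. In the Rag1 window a match of each overlaps the other.
Dntt: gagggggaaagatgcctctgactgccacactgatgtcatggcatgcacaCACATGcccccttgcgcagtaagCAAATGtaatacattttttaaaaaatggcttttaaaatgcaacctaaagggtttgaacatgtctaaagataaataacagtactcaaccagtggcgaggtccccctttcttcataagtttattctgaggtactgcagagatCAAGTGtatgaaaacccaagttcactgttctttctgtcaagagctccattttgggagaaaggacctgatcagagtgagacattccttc
Rag1: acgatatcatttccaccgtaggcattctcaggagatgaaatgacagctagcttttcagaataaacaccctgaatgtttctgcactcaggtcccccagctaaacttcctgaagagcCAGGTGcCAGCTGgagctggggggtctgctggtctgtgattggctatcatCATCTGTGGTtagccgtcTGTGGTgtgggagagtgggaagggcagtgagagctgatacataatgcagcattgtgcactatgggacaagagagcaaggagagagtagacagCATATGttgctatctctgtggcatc
Flt3: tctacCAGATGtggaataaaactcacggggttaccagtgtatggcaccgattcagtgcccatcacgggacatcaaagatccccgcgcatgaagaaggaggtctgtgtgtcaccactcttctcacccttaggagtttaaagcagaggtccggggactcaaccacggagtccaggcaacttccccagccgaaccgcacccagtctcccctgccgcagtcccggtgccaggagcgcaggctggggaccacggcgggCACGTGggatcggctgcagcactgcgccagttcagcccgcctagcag
Il7r: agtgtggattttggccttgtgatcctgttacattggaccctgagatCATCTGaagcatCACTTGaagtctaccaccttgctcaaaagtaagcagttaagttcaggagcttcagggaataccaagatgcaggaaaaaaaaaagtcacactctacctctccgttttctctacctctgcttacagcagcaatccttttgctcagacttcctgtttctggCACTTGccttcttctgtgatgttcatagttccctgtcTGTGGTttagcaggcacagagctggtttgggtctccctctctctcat

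On both strands, CANNTG was found in 11 of the 12 windows, with 3 matches for Dntt, 4 for Rag1, 2 for Flt3 and 3 for Il7r. Of all 32851 RefSeq windows of this length 72.3% hold it. TGTGGT was found in 2 of the 12 windows, those of Rag1 (2 matches) and Il7r (1 match), and 16.8% of all windows hold it. TGGGAA, an Ikaros motif, was in 3 of the 12 windows, 1 of Rag1 and 2 of Satb1, against 25.6% of all. ACCACCC, the core of the motif of the hedgehog-regulated Gli factors, was in 0 of the 12 windows, and 4.61% of all windows hold it. These counts describe letters in short windows and say nothing about where a factor binds.

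Values below are log2 intensities, and each gene is described first by its main probe set, the brightest over the 4 arrays. Brightness is not compared between probe sets, since probes differ in how they hybridise. A probe set counted as dim when its mean over the arrays was not above 7.23, the median of all 45037 probe sets that are not controls. Of the 8 genes, 5 (Dntt, Satb1, Flt3, Il7r and Ltb) had a main probe set past this filter, and Rag1, Rag2 and Ccr9 did not. Of the 19 probe sets 8 were past it. A difference of at least 2-fold is 1 or more on the log2 scale.

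The arrays correlated with each other at Pearson's r from 0.980 to 0.994 across probe sets. Smo itself was read first. On its brightest probe set in WT cells, 1427049_s_at, it was 6.13 in Smo-deficient LSK and 10.81 in WT LSK, and 6.36 in Smo-deficient MP and 10.40 in WT MP. On the other Smo probe set past the filter, 1427048_at, the differences were smaller, with 6.96 in Smo-deficient LSK and 10.02 in WT LSK, and 7.94 in Smo-deficient MP and 9.72 in WT MP. The sort was visible in its markers, with all 6 measured LSK markers higher in LSK than MP by the mean of both pools (5 passed the limma test described below, and c-Kit itself differed by 0.22 without passing) and all 8 markers of myeloid progenitors lower (8 passed). Ly6a, the gene of Sca-1, was on the list of LSK markers but had no probe set given to its symbol alone, so it was not read. The 3 measured Y-linked genes were higher in the Smo-deficient pool, by 1.44 to 1.70 in LSK and 1.13 to 1.17 in MP, and Xist was lower by 0.89 and 0.47, while the labels give mixed sexes for every group. The part of sex in the results on the 8 genes was not tested.

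All 8 genes were higher in Smo-deficient LSK than in WT LSK on their main probe sets, 7 of them at least 2-fold. Of the 22518 probe sets past the filter, 0.595% were at least 2-fold higher in this comparison, and of the 22519 dim ones 0.386%. The 8 genes were chosen with earlier results of these data known, so these shares are given for scale and test nothing. The median of the 8 differences was 1.24, with a range from 0.70 for Rag2 to 2.15 for Dntt, whereas the median over all probe sets past the filter was -0.02. In Smo-deficient MP all 8 were again higher than in WT MP, but by less, and 2 of them (Dntt and Satb1) reached 2-fold. The share of probe sets at least 2-fold higher there was 0.28%. The median of the 8 was 0.67 in MP, with a range from 0.39 for Ccr9 to 1.17 for Dntt, and that of all probe sets past the filter was -0.05. The cells were measured in bulk, so more cells of a primed type and more RNA per cell cannot be told apart.

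Markers of other progenitors also differed between the genotypes. Of the 8 myeloid progenitor markers, 5 were higher and 3 lower in Smo-deficient cells of both populations, with medians of 0.39 in LSK and 0.33 in MP. The receptor gene Csf1r, of the monocyte lineage, was higher by 1.21 in LSK and 1.09 in MP, and the neutrophil elastase gene Elane by 0.87 and 0.77. The 3 lower genes were those of the erythroid lineage, with differences in LSK and MP of -0.79 and -0.54 for Gata1, -0.69 and -0.48 for Klf1 and -0.76 and -0.72 for Epor. The 8 markers summed to an intensity of 63888 in Smo-deficient LSK and 53035 in WT LSK, and 122115 in Smo-deficient MP and 100455 in WT MP. Of the 6 LSK markers 5 were higher in each population, with medians of 0.27 in LSK and 0.07 in MP, and in LSK they ranged from -0.51 for Slamf1 to 1.11 for Procr, a stem cell marker. The LSK markers summed to 28359 in Smo-deficient LSK and 21781 in WT LSK, and 12937 in Smo-deficient MP and 10288 in WT MP. The part of the makeup of the sorted cells in the differences of the 8 genes was not tested.

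**Figure D1:**
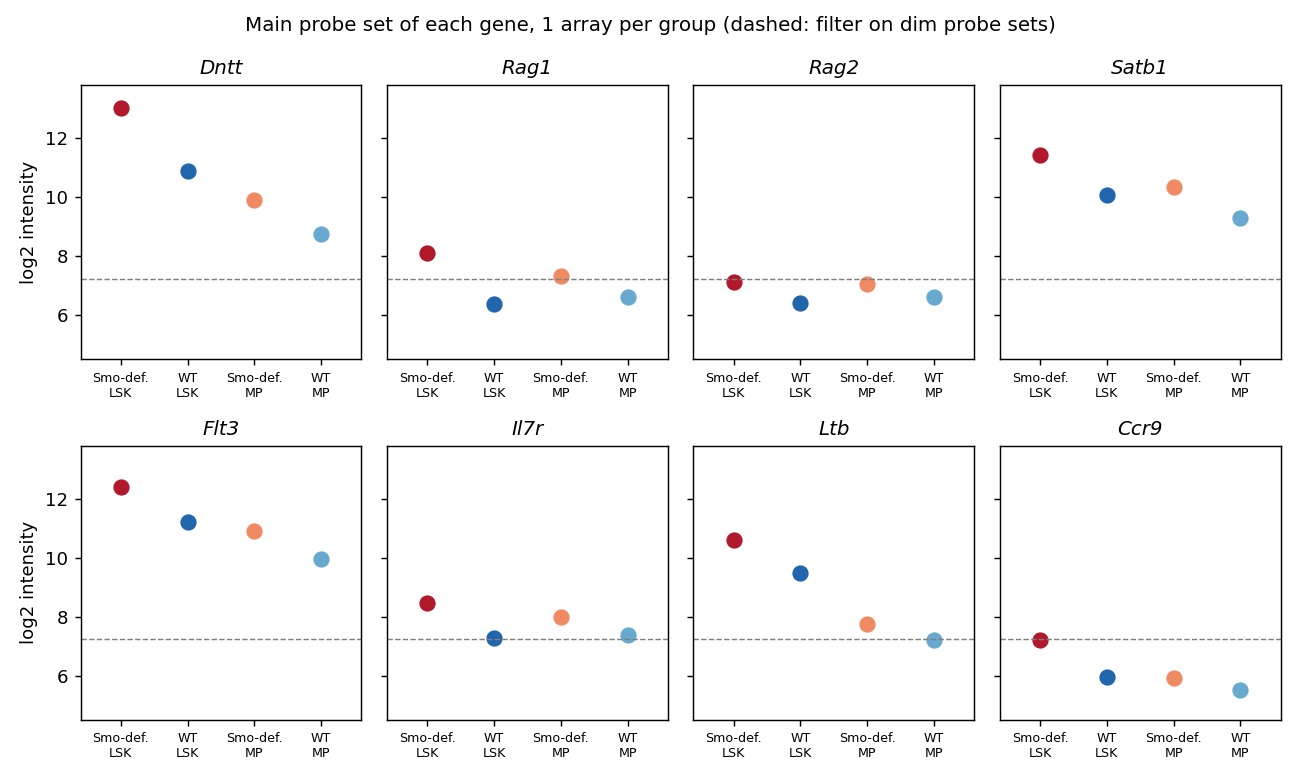
Log2 intensity (vertical axis) of the main probe set of each of the 8 genes in the 4 groups, 1 point per array; the dashed line at 7.23 is the filter on dim probe sets. In all 8 panels the Smo-deficient point lies above the WT point of the same population, and Smo-deficient LSK is the highest of the 4.

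Dntt, which encodes the template-independent polymerase of receptor gene junctions, had the highest difference of the 8. On its main probe set 1449757_x_at the value was 13.02 in Smo-deficient LSK, 10.87 in WT LSK, 9.90 in Smo-deficient MP and 8.73 in WT MP. It was thus 4.45-fold higher in Smo-deficient LSK than in WT LSK and 2.26-fold higher in Smo-deficient MP than in WT MP. The order of the 4 arrays ran by population and then by genotype: even WT LSK, the lower LSK value, was above Smo-deficient MP. In the ranking of 22518 genotype differences in LSK this probe set stood at place 3, and another Dntt probe set, 1450545_a_at, stood at place 2.

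That probe set, 1450545_a_at, had 11.81 in Smo-deficient LSK and 9.52 in WT LSK, a difference of 2.29, and 8.75 in Smo-deficient MP and 7.78 in WT MP, a difference of 0.98. The dim probe set 1420166_at had 8.40 in Smo-deficient LSK and 6.41 in WT LSK, a difference of 1.99. In MP it had 6.24 in Smo-deficient and 5.65 in WT cells, a difference of 0.59. All 3 Dntt probe sets therefore gave the same direction in both populations and nearly the same size in LSK. The suffix x in a probe set name means that some of its probes may also bind other transcripts, and for Dntt the value did not rest on that probe set alone.

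Rag1 and Rag2 are neighbours among the protein-coding genes of chromosome 2, and their products act as a complex. Rag1, whose product holds the catalytic site, was 8.11 in Smo-deficient LSK and 6.35 in WT LSK, and 7.33 in Smo-deficient MP and 6.62 in WT MP. The difference was 1.76 in LSK and 0.71 in MP. Both WT values and the mean of the probe set 1450680_at lay below the filter, so the size of the fold, 3.39 in LSK, depends on the background; with a pseudocount of 32 the log2 difference in LSK was 1.44. Smo-deficient LSK stood well above the other 3 arrays, and Smo-deficient MP lay above WT LSK.

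Rag2, which encodes the accessory subunit of the recombinase, was 7.10 in Smo-deficient LSK and 6.40 in WT LSK, and 7.03 in Smo-deficient MP and 6.62 in WT MP. Its differences of 0.70 in LSK and 0.41 in MP were lower than those of Rag1, and all 4 values of its only probe set were below the filter level. For probe sets of like mean level the median absolute genotype difference was 0.13 in LSK and 0.12 in MP. Rag1 and Rag2 shared their direction in both populations, and it was only for Rag1 that 2-fold was reached in LSK.

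Satb1, the chromatin organizer, was at least 2-fold higher in Smo-deficient cells of both populations. On 1416008_at it was 11.41 in Smo-deficient LSK and 10.07 in WT LSK, 2.54-fold higher, and 10.32 in Smo-deficient MP and 9.29 in WT MP, 2.05-fold higher. Here Smo-deficient MP was above WT LSK, unlike for Dntt. Probe sets 1416007_at and 1436182_at differed by 1.42 and 1.52 in LSK and by 1.07 and 1.02 in MP, so 3 of the 5 Satb1 probe sets were at least 2-fold higher in LSK and in MP. This held for 0.12% of the probe sets past the filter. The 2 dim Satb1 probe sets differed little, with 0.25 and 0.11 in LSK and 0.17 and -0.06 in MP for 1439449_at and 1439315_at.

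**Figure D2:**
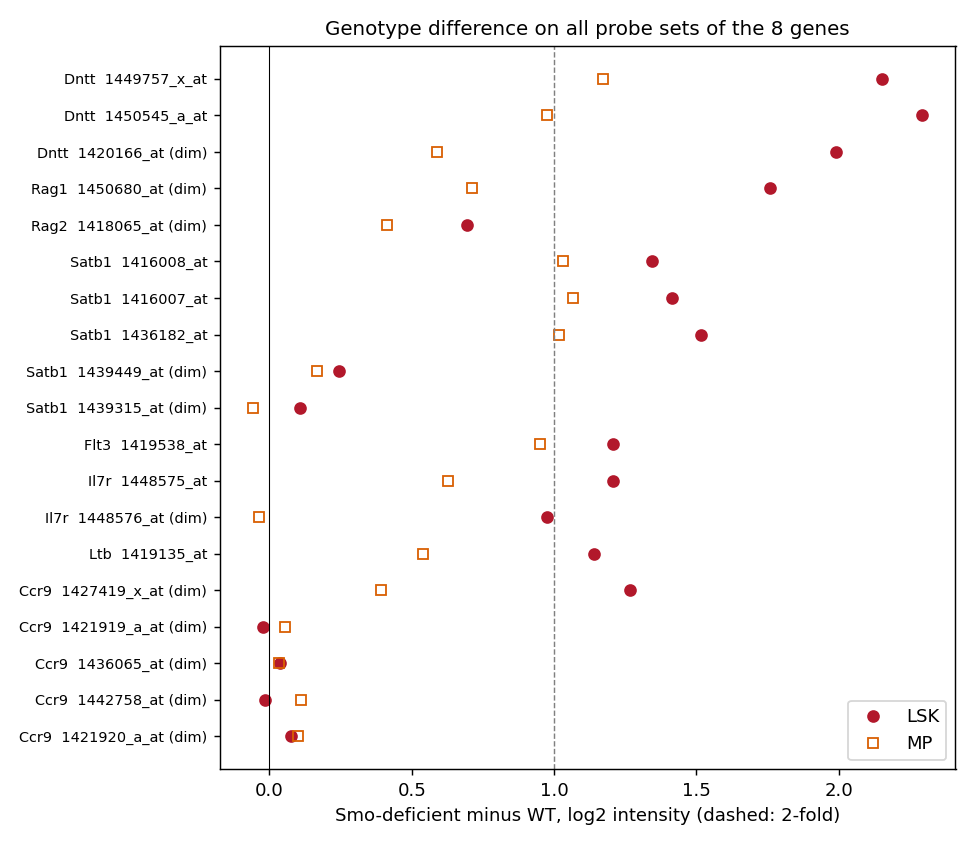
Smo-deficient minus WT in log2 intensity (horizontal axis) for each of the 19 probe sets of the 8 genes, in LSK (filled circles) and MP (open squares); probe sets marked as dim lie below the filter. In LSK 11 of the 19 lie at or right of the dashed line and in MP 4 do, while 4 of the 5 Ccr9 probe sets and 2 of the 5 of Satb1 lie at 0.25 or below in both.

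Flt3 encodes the receptor tyrosine kinase for Flt3 ligand and marks the multipotent progenitors that lean to the lymphoid side. It was 12.41 in Smo-deficient LSK and 11.20 in WT LSK, 2.31-fold higher, and 10.89 in Smo-deficient MP and 9.94 in WT MP, 1.93-fold higher. The LSK values were above those of MP, with WT LSK close to Smo-deficient MP.

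Il7r encodes the receptor chain for interleukin 7, on which mouse B and T cell development depends. Its main probe set 1448575_at was 8.48 in Smo-deficient LSK and 7.27 in WT LSK, and 7.99 in Smo-deficient MP and 7.36 in WT MP. The difference was 1.21 in LSK and 0.63 in MP. On the dim probe set 1448576_at the LSK difference was 0.97, from 6.91 in Smo-deficient and 5.93 in WT cells, but in MP the values were 6.13 in Smo-deficient and 6.17 in WT cells, a difference of -0.04. The Il7r probe sets thus gave like values in LSK and parted in MP. On both, the Smo-deficient cells of LSK were the highest and WT LSK was the lowest of the 4 arrays.

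Ccr9, the receptor for the chemokine Ccl25, was higher on 1 probe set and not on the other 4. On 1427419_x_at it was 7.20 in Smo-deficient LSK and 5.94 in WT LSK, and 5.92 in Smo-deficient MP and 5.52 in WT MP, with differences of 1.27 and 0.39. All 5 Ccr9 probe sets were dim on average, and the other 4 differed by -0.02 to 0.08 in LSK and by 0.03 to 0.11 in MP. The median over the probe sets differed by 0.04 in LSK. Ccr9 therefore counts among the 7 genes at 2-fold only through a probe set that is dim and of the x type; whether its probes bind other transcripts was not tested.

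Ltb, which encodes lymphotoxin beta, a ligand that takes part in building lymphoid tissue, was 10.62 in Smo-deficient LSK and 9.48 in WT LSK, 2.20-fold higher. In MP it was 7.76 in Smo-deficient and 7.22 in WT cells, 1.45-fold higher. The LSK values were far above those of MP in both genotypes. The genotype difference of Tnf, the gene next to Ltb on chromosome 17, was 0.19 in LSK and 0.17 in MP. That of the dim Lta, which encodes the chain that pairs with lymphotoxin beta, was 0.01 and -0.16.

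LSK cells were then compared with MP cells, which the study design used to find genes enriched in the LSK fraction. Dntt, Ltb, Flt3 and Satb1 rose in LSK over MP, and Il7r did not pass. The test was limma over all 22518 probe sets with the pool as a block (1 LSK and MP pair from each of 2 pools) and a Benjamini-Hochberg adjusted p under 0.05, at which 15.1% of the probe sets were higher and 7.19% lower. After quantile normalization of the deposited values 2986 were higher and 2570 lower, against 3395 and 1618 as deposited. The block leaves 1 residual degree of freedom before moderation, and the residual is how far the pools differ in LSK minus MP, so variation among mice within a genotype is not in it.

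Dntt was higher in LSK by 3.12 in the Smo-deficient pool and by 2.14 in the WT pool, with a mean of 2.63 ± 0.22 (SE, limma adjusted p = 0.000668). The Dntt probe set 1450545_a_at gave 3.06 in the Smo-deficient pool and 1.74 in the WT pool. Ltb was higher by 2.86 in the Smo-deficient pool and 2.26 in the WT pool, with a mean of 2.56 ± 0.16 (SE, limma adjusted p = 0.000282). WT MP, at 7.22, lay just below the filter level, so the size depends on the background, and with a pseudocount of 32 the mean was 2.37. These 2 genes had by far the highest LSK enrichment of the 8, at places 32 and 36 of the 22518 probe sets.

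Flt3 was higher in LSK by 1.52 in the Smo-deficient pool and 1.26 in the WT pool, with a mean of 1.39 ± 0.11 (SE, limma adjusted p = 0.000586). Satb1 was higher by 1.09 in the Smo-deficient pool and 0.78 in the WT pool, a mean of 0.94 ± 0.12 (SE, limma adjusted p = 0.00357), and its other probe sets past the filter gave means of 1.21 and 1.04 and also passed. Without the pool as a block the calls of Dntt, Flt3 and Satb1 were lost, with limma adjusted p of 0.105, 0.153 and 0.330, and that of Ltb was kept at 0.0280. Over all alternatives the adjusted p ran from 0.000292 to 0.105 for Dntt, from 0.000109 to 0.153 for Flt3, from 0.00149 to 0.330 for Satb1 and from 4.57e-05 to 0.0280 for Ltb.

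Il7r did not pass, and the dim Rag1, Rag2 and Ccr9 lay below the filter of this test. Il7r differed by 0.49 in the Smo-deficient pool and -0.09 in the WT pool, with a mean of 0.20 ± 0.16 (SE, limma adjusted p = 0.401). For the Rag1 probe set LSK minus MP was 0.78 in the Smo-deficient pool and -0.26 in the WT pool, and for Rag2 it was 0.07 and -0.21. Ccr9 on 1427419_x_at was higher in LSK by 1.29 in the Smo-deficient pool and 0.41 in the WT pool, and its other 4 probe sets gave means from -0.30 to 0.14. In WT marrow, then, the arrays had Il7r, Rag1 and Rag2 at slightly lower values in LSK than in MP, and in Smo-deficient marrow at higher ones. The values of Rag2 in the Smo-deficient pool (0.07) and Il7r in the WT pool (-0.09) were small. For probe sets of like mean level, the median absolute LSK minus MP difference by the mean of both pools was 0.14 for Rag2 and 0.15 for Il7r.

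**Figure D3:**
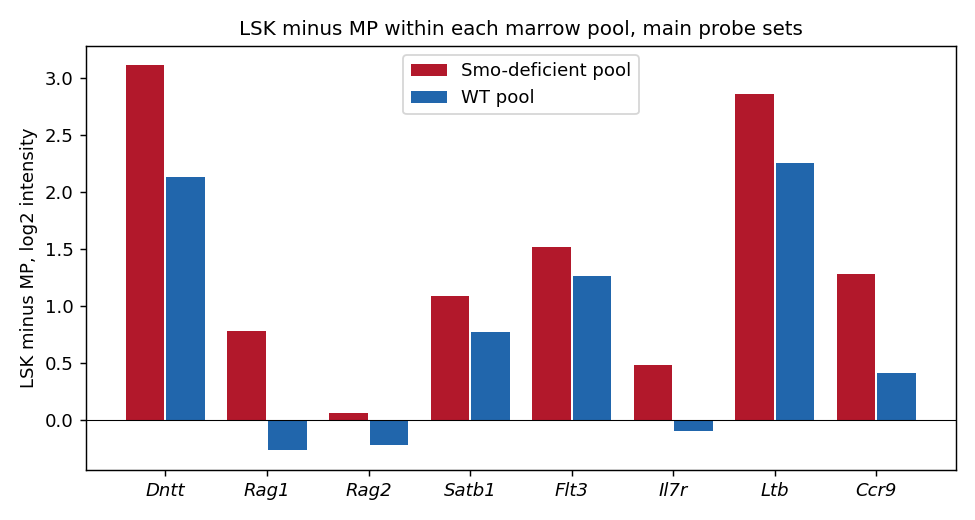
LSK minus MP in log2 intensity (vertical axis) for the main probe set of each gene, in the Smo-deficient pool (red bars) and the WT pool (blue bars), 1 pair of arrays each. Dntt and Ltb stand highest in both pools, and the bar of the Smo-deficient pool is above that of the WT pool for all 8 genes, with opposite signs for Rag1, Rag2 and Il7r.

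The genotype difference in LSK minus that in MP was positive for all 8 main probe sets, with a median of 0.59 and a range from 0.26 for Flt3 to 1.05 for Rag1, against a median of 0.05 over all probe sets past the filter. Only Rag1, which is dim, reached 2-fold, and 0.453% of the probe sets past the filter did so. Dntt came next at 0.98 on its main probe set and had 1.32 and 1.40 on the others. Flt3 at 0.26, Rag2 at 0.28 and Satb1 at 0.31 had the most even differences. The LSK and MP cells of a genotype shared their mice, and with 1 array per group this quantity could not be tested.

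Other genes of lymphoid priming followed in part. Of a list of 15, 13 were measured, and 10 were higher in Smo-deficient LSK, with a median of 0.45 and 1 gene at 2-fold. Over all probe sets past the filter the median was -0.02, and 0.595% were at least 2-fold higher. The list gene at 2-fold was Blnk, a B cell adaptor gene that lies next to Dntt on chromosome 19, at 8.44 in Smo-deficient LSK and 7.26 in WT LSK, and 7.57 in both MP samples. For Notch1, the receptor that directs T cell fate, the differences were 0.89 in LSK and 0.37 in MP. For Cd27, a surface marker of multipotent progenitors, they were 0.58 and 0.62. The transcription factor genes Mef2c (-0.10), Bcl11a (-0.14), Tcf3 (-0.16) and Ikzf1 (0.22), which act upstream of lymphoid fate, went in both directions in LSK. Foxo1, another factor gene of the list, was higher by 0.36 there, and Lmo4 by 0.45. In MP 8 of the 13 were higher and none reached 2-fold, with a median of 0.03 and a range from -0.45 for Tcf3 to 0.62 for Cd27. Between LSK and MP, 4 of the 11 tested rose (Cd27 by 1.58, Mef2c by 0.99, Notch1 by 0.86 and Foxo1 by 0.61) and 1 fell (Cnn3, -0.97), by the same limma test, at which 15.1% of all probe sets rose and 7.19% fell.

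The general end joining genes are used by every cell to repair breaks, and by lymphocytes also to seal recombined receptor genes. They were listed together with other recombination genes used in all cells, such as Hmgb2, Atm and Trp53bp1. Between genotypes the median of this list was near 0 in LSK, and most of its genes were lower in Smo-deficient MP. Of 11 measured, 4 were higher and 7 lower in Smo-deficient LSK, with a median of -0.03 and none at 2-fold. In MP 2 were higher and 9 lower with a median of -0.15, against -0.05 over all probe sets past the filter. The difference of the Ku subunit gene Xrcc5 was -0.32 in LSK and -0.78 in MP. That of the ligase gene Lig4, which is dim, was 0.63 and -0.28. Polm, which encodes the polymerase most closely related to the product of Dntt, differed by -0.07 in LSK and -0.15 in MP. Between LSK and MP 1 of 10 tested rose, Trp53bp1 by 0.73, a share no higher than the 15.1% of all probe sets.

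Ligands, partner chains and signalling genes of the receptors had medians near 0 between genotypes, 0.06 in LSK and 0.06 in MP. The list also holds Flt3l and Il2rg, which were not measured. Of the 14 measured genes 9 were higher in each population, and in MP the 14 ranged from -0.42 for Socs2 to 0.41 for Bcl2. None reached 2-fold, with Pim1, a kinase gene induced by cytokines, highest in LSK at 0.48. Crlf2, the chain that joins Il7r in another cytokine receptor, had differences of 0.04 in LSK and 0.37 in MP. The kinase genes Jak1 and Jak3, which carry the signal, had 0.11 and 0.22 in LSK. The ligand genes Il7 (-0.01, dim) and Ccl25 (-0.29) were not higher in Smo-deficient LSK. Between LSK and MP 5 of the 12 tested genes rose, led by Socs2, a cytokine signalling inhibitor gene, by 2.84, beside 15.1% of all probe sets.

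**Figure D4:**
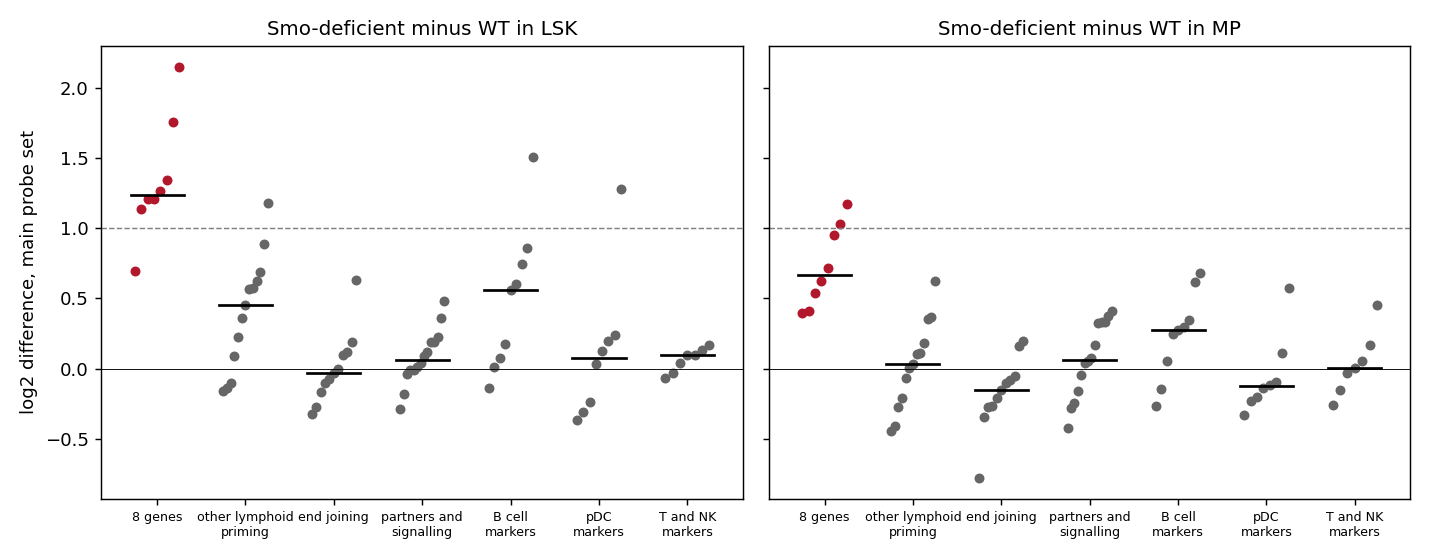
Smo-deficient minus WT in log2 intensity (vertical axis) in LSK (left) and MP (right) for the main probe set of each gene in 7 lists, 1 point per gene with a bar at the median; pDC are plasmacytoid dendritic cells and the dashed line is 2-fold. The 8 genes (red) have medians of 1.24 in LSK and 0.67 in MP. The list labelled end joining, which also holds other recombination genes used in all cells, has -0.03 and -0.15.

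Several of the 8 genes are also expressed in lymphoid cells past the progenitor stage, so markers of such cells were read beside them. Of 9 measured B cell markers, 8 were higher in Smo-deficient LSK, with a median of 0.56, and 7 were higher in Smo-deficient MP (median 0.28). The summed intensity of these markers was 3465 in Smo-deficient LSK and 2544 in WT LSK, and 2922 in Smo-deficient MP and 2475 in WT MP. Ebf1, the factor that starts the B cell program, was dim, at 6.90 in Smo-deficient LSK and 5.39 in WT LSK. Ms4a1 differed by 0.86, Vpreb1 by 0.75 and Pax5, which maintains B cell identity, by 0.07 in LSK. The part of early B lineage cells in the differences of the 8 genes was not tested.

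Markers of T and NK cells summed to 6378 in Smo-deficient LSK and 5990 in WT LSK, and to 6444 in Smo-deficient MP and 5047 in WT MP, with 5 of 7 higher in LSK (median 0.09) and 4 of 7 in MP (median 0.01). The sum in MP follows the bright Nkg7, a cytotoxic granule gene, at 12.31 in Smo-deficient MP and 11.86 in WT MP. The defining markers Cd3d and Cd3g and the NK receptor gene Ncr1 were dim, whereas Cd3e, Cd4 and Cd8a were past the filter, with differences in LSK of -0.03, 0.10 and 0.13. For plasmacytoid dendritic cells, which can share Ccr9, Satb1, Flt3 and Dntt, 5 of 8 markers were higher in LSK (median 0.08) and 2 of 8 in MP (median -0.13), and the sums were 4443 in Smo-deficient LSK and 4333 in WT LSK, and 3492 in Smo-deficient MP and 3891 in WT MP. Siglech, a defining marker of these cells, was dim, at 6.89 in Smo-deficient LSK and 6.77 in WT LSK. The factor gene Spib, used by these cells and by B cells, was the exception at 1.28 in LSK and 0.58 in MP.

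The genes whose pattern over the 4 arrays was nearest to these were sought among the main probe sets past the filter of 11899 other genes, by the root mean square distance between log2 values centred on each probe set's own mean. Nearest to Dntt were Zfp467 (0.35), H2-Ob (0.47), Mir1931 (0.50), Cd244a (0.53) and Mamdc2 (0.54), and of the 8 genes Ltb was at 0.42. Satb1 had much nearer genes, with Abtb2 at 0.13, the lymphoid transcription factor gene Ets1 at 0.15, Mndal at 0.18, Gdpd3 at 0.19 and the chemokine gene Cxcl2 at 0.20. Among the 8, Ccr9 and Flt3 were nearest to Satb1, at 0.23 and 0.24, and Ltb and Dntt were farthest, at 0.83 and 0.89. The Ccr9 pattern is that of its dim x type probe set alone, and its other probe sets differed little between genotypes. The mean pattern of all 8 was closest to Bach2, a B cell transcription factor gene (0.10), Trp53inp1 (0.10), the estrogen receptor gene Esr1 (0.13), Nfkbiz (0.14) and Marcks (0.15). Most of the 8 did not lie close to their own mean pattern. Satb1 (0.13), Ccr9 (0.17) and Flt3 (0.18) were near it, and Rag1 (0.44), Il7r (0.45), Rag2 (0.64), Ltb (0.74) and Dntt (0.83) were farther off. Bach2 was 9.35 in Smo-deficient LSK and 8.16 in WT LSK, and 7.97 in Smo-deficient MP and 7.45 in WT MP. With 4 arrays a gene can lie close to a pattern without being related to it, and the distances are a description. They are not scaled for the size of the differences, so a pattern with large ones, as for Dntt, has fewer genes near it.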

How the data were processed

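Total RNA, 20 ng per sample, was amplified in 2 cycles and hybridised to Affymetrix mouse arrays, per the labels' protocols. The deposited intensities were made by the authors with RMA, per the submitters' processing notes, whose version the sources used here do not state. The values run from 12.3 to 44290.5 and were read as linear, and log2 was taken with no pseudocount. RMA evens out the arrays, so a shift shared by most genes may be lost. Control probe sets were left out.

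The number of arrays limits the precision. Genotypes were compared by log2 differences, with no test, and LSK with MP by limma 3.58.1 (lmFit, eBayes with trend) in R 4.3.3 with the pool as a block. Alternatives were quantile and cyclic loess normalization, a pseudocount of 32, no filter or 1 at the 25th percentile, no block, no trend, a 1.5-fold threshold and gene medians. The 8 genes, the lists and the rules were chosen with earlier results of these data known. Named genes were all 8, list genes at 2-fold or at the ends of a range, and the 5 nearest by pattern; other list genes named were chosen after their values were seen. RefSeq matched all 8 Entrez identifiers. Blocks pair the LSK and MP samples of each pool, since both came from the same mice.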

Additional observations from a re-analysis of the deposited data

Results flagged for a closer look

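For 4 probe sets the genotype difference had opposite signs in LSK and MP. The difference between the populations was not tested, as each group has 1 array. Il7r on 1448576_at was 0.97 higher in Smo-deficient LSK, and its difference in MP was -0.04, a gap of 1.01, while its brighter probe set was higher in both. The other 3 are dim probe sets with small gaps, 0.164 for Satb1 on 1439315_at, and -0.0749 and -0.129 for Ccr9 on 1421919_a_at and 1442758_at.

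Read the other way, LSK minus MP was positive in the Smo-deficient pool and negative in the WT pool for Rag1 (gap 1.05), Rag2 (gap 0.283), both Il7r probe sets (gaps 0.580 and 1.01) and no other member probe set, and this too was not tested. Rag2 in the Smo-deficient pool (0.07) and the main Il7r probe set in the WT pool (-0.09) were close to 0. How many of all probe sets change sign between the pools was not counted either.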

How the results depend on the processing

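All 8 genes stayed higher in Smo-deficient cells of both populations under quantile and cyclic loess normalization, a pseudocount of 32 and the median of a gene's probe sets. In LSK 6 to 8 of them reached the threshold under the alternatives. In MP the count of 2 became 3 after quantile and after cyclic loess normalization, where Flt3 reached 1.04 and 1.07, 1 with the pseudocount, 1 with gene medians and 5 at 1.5-fold. Ccr9 moved most, to 0.04 in LSK and 0.03 in MP with gene medians. The count for the difference of differences, 1, became 0 after quantile normalization (0 of the 8 genes, with no test run), 2 with gene medians and 4 at 1.5-fold.

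Over all probe sets, those 2-fold higher in LSK numbered 134, or 221 with no filter, and at 1.5-fold 689 were higher and 199 lower. In MP 63 were higher and 81 lower as deposited. Quantile normalization gave 86 and 63, cyclic loess 102 and 56, and the 1.5-fold threshold 530 and 593, and with the pseudocount 41 were higher. For the difference of differences 102 were higher, 202 with no filter, 173 with the filter at the 25th percentile, and at 1.5-fold 727 were higher and 215 lower. For LSK minus MP 2570 probe sets were lower after quantile normalization, and without the replicate block 918 passed as higher and 140 as lower, with 1 of the 8 genes, Ltb, passing. Il7r was 0.489 in the Smo-deficient pool alone and -0.0914 in the WT pool alone. With no filter Ccr9 passed too (0.85, limma adjusted p = 0.0282), on its x type probe set. The causes were not tested. Rag1, Rag2 and Ccr9 are limited by signal over background, and the WT values of Il7r and the WT MP value of Ltb lay close to the filter level.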
